A study of Homo sapiens with 12 samples.

Results

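Glycolysis and the response to low oxygen are tied together by the hypoxia-inducible factors, and 42 genes that represent both were followed in SW-13 cells with and without BRG1. The genes were chosen by symbol for their known roles, with earlier results of these data known. They comprised 2 HIF subunits, 4 genes of HIF degradation, 11 hypoxia targets and 4 glucose or lactate transporters. The rest were 9 enzymes of upper and 5 of lower glycolysis, 3 regulators of phosphofructokinase and 4 genes that handle pyruvate. Of the 42 genes 39 had a probe among the 18665 symbols of the array, and these 39 carried 74 of the 48803 probes. CA9, SLC16A1 and SLC16A3 were not analysed here. EGLN3, an oxygen-sensing prolyl hydroxylase, had 1 probe, which was not above background on any of the 12 arrays, and the remaining 38 genes were tested among 10333.

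SW-13 is an established line from an adrenal carcinoma that lacks BRG1, the ATPase subunit of the SWI/SNF chromatin remodeler encoded by SMARCA4. All 4 groups of 3 arrays carried an adenovirus: Ad-GFP cells received virus for GFP alone and Ad-BRG1 cells virus for a GFP-BRG1 fusion, each left untreated or given IFNγ for 6 h. Per the methods of the study the 3 samples of a group were biological replicates, and the BRG1 virus was titrated to the protein level of HeLa cells, so Ad-BRG1 is a reconstitution by a viral vector and not a repair of the cells' own gene. An array read the RNA of a whole culture, so a change in the share of cells that express a gene cannot be told apart from a change of RNA per cell.

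Raw mean intensity per array was 627 to 666 for Ad-GFP, 612 to 643 for Ad-BRG1, 571 to 650.0 for Ad-GFP + IFNγ and 539.9 to 571 for Ad-BRG1 + IFNγ, and 15741 to 16828 probes per array were above background. IRF1, a direct IFNγ target, rose by 5.21 in Ad-GFP and 5.24 in Ad-BRG1 cells on the log2 scale (adjusted p = 2.64e-13 and 8.11e-14), which checks the IFNγ labels. The SMARCA4 probe read 8.81, 8.57 and 8.73 in Ad-GFP and 8.43, 8.49 and 8.61 in Ad-BRG1 cells, so it gave no check of the virus labels. Of 9 adrenal cortex markers, none was above background on all arrays and 7 (STAR, CYP17A1, CYP11B1, CYP11B2, HSD3B2, NR5A1 and MC2R) on no array. All levels below are normalized log2 intensities of 1 probe per gene, which can be compared between arrays but not between genes. A difference is Ad-BRG1 minus Ad-GFP or IFNγ minus untreated, given with its standard error (SE, 3 against 3 arrays). A gene was called when its adjusted p in the limma fit over all 10333 genes was under 0.05, while 95% intervals are those of a single gene and are not adjusted.

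In cells with enough oxygen the prolyl hydroxylases EGLN1, EGLN2 and EGLN3 mark the alpha subunits of HIF, and VHL, the recognition subunit of a ubiquitin ligase, binds the marked protein for destruction. When oxygen falls, HIF1A and EPAS1 (HIF-2 alpha) persist, pair with ARNT and bind DNA at a short core motif near genes for glucose uptake, glycolysis, blood vessel growth and mitochondrial turnover. This control acts on HIF protein, which an mRNA array does not read.

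BRG1 raised most of these genes in untreated cells. Of the 38 genes, 25 were higher in Ad-BRG1 than in Ad-GFP cells, 4 were lower and 9 were not called, where 26.7% of all genes tested were called higher and 30.3% lower (57.1% in all). The median difference of the 38 was 0.30, against -0.031 over all genes tested. The 25 included ALDOC, ADM, P4HA2, DDIT4, HK1 and SLC2A1, each at least 2-fold higher, and a called difference of that size was seen in 4.84% of all genes. These sizes depended on the processing and the probe. Over all alternative runs and probes the smallest log2 differences were 1.44, 1.45, 0.95, 1.11, 1.19 and 0.84 in that order. P4HA2 and SLC2A1 were thus under 2-fold in at least 1 alternative. The 4 lower genes were VEGFA, VHL, PFKFB2 and PFKFB3. The groups did not overlap on single arrays for 28 of the 38 genes, against 62.8% of all genes tested.

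By role, 9 of 10 hypoxia targets were higher and 1 was lower (median 0.76), and both glucose transporters with a probe were higher (median 0.80). Among enzymes, 7 of 9 of upper glycolysis were higher (median 0.35) and 4 of 5 of lower glycolysis (median 0.25), with none lower in either. Both HIF subunits were higher (median 0.48), though EPAS1 was not above background on any Ad-GFP array. Of the 3 tested genes of HIF degradation, 1 was higher and 1 lower (median 0.19). The 3 phosphofructokinase regulators had none higher and 2 lower (median -0.22), and none of the 4 pyruvate genes was called (median -0.045).

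**Figure D1:**
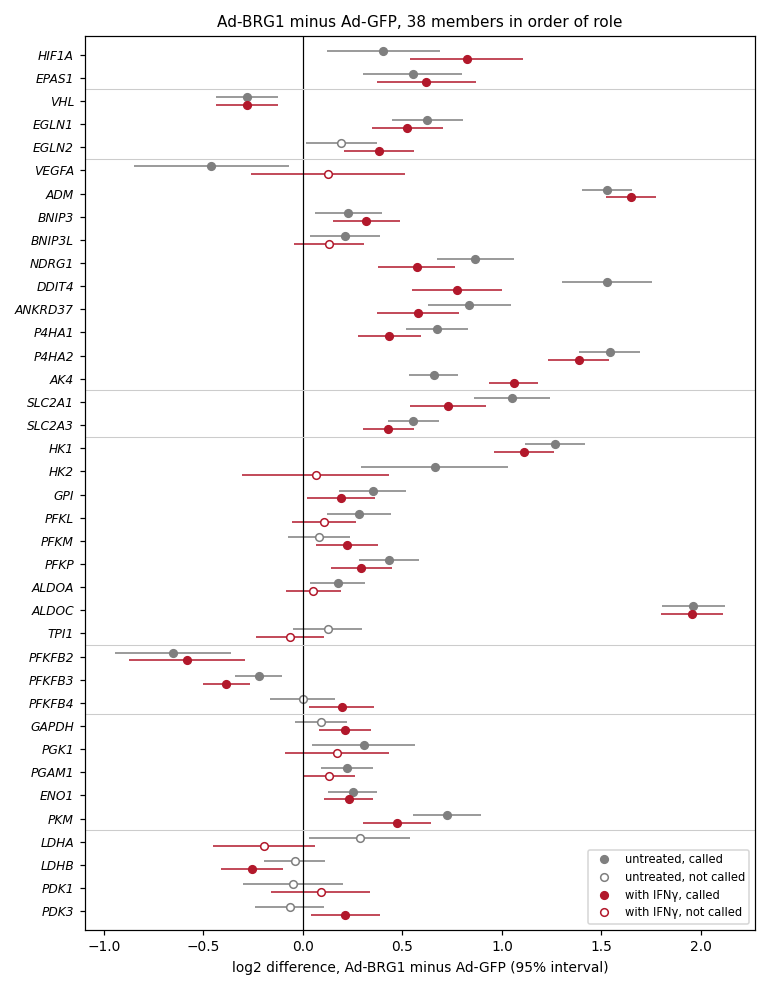
Log2 difference of Ad-BRG1 minus Ad-GFP (horizontal axis) for each of the 38 genes in order of role, with 95% intervals, in untreated cells (grey) and with IFNγ (red). Filled points are called and open points are not. ALDOC stands farthest to the right in both, at 1.96 and 1.95, and PFKFB2 farthest to the left, at -0.65 and -0.58.

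ALDOC, the aldolase best known from brain, showed the largest difference. It read 7.37, 7.53 and 7.41 in Ad-GFP and 9.32, 9.50 and 9.37 in Ad-BRG1 cells, so every Ad-BRG1 array lay above every Ad-GFP array. This was 3.90-fold, or 1.96 on the log2 scale (SE 0.072, adjusted p = 3.91e-10). P4HA2, a catalytic subunit of the collagen prolyl hydroxylase, read 9.09, 9.35 and 9.26 in Ad-GFP and 10.79, 10.80 and 10.74 in Ad-BRG1 cells. Its difference was 2.91-fold (log2 1.54, SE 0.07, adjusted p = 2.83e-09), and 2 other probes of the gene gave 1.35 and 0.95. P4HA1, an alternative catalytic subunit, was higher by 0.67 on the log2 scale (SE 0.073, adjusted p = 6.49e-06). It read 10.32, 10.27 and 10.27 in Ad-GFP and 11.00, 11.04 and 10.84 in Ad-BRG1 cells.

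DDIT4 encodes REDD1, an inhibitor of mTORC1 that responds to low oxygen and energy stress. Its level was 7.55, 7.56 and 7.47 in Ad-GFP and 8.97, 9.28 and 8.92 in Ad-BRG1 cells, with no overlap. The difference was 2.89-fold (log2 1.53, SE 0.10, adjusted p = 1.04e-07). ADM, the precursor of the vasodilator peptide adrenomedullin, read 10.69, 10.74 and 10.76 in Ad-GFP and 12.22, 12.29 and 12.26 in Ad-BRG1 cells. These arrays were tight within each group, and the difference of 2.89-fold (log2 1.53, SE 0.058, adjusted p = 4.75e-10) was as large as that of DDIT4.

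The 4 genes with the largest differences are shown by the 250 bases that precede their annotated start on their own strand (RefSeq, GRCh38.p14), because the core motif of the HIF response element lies in this stretch of some hypoxia genes. Capitals mark ACGTG or GCGTG on either strand, so that CACGT and CACGC are the same motifs read on the opposite strand and CACGTG counts on both. ALDOC lies at chr17:28576896-28577145 (minus strand), P4HA2 at chr5:132227092-132227341 (minus strand), DDIT4 at chr10:72273674-72273923 (plus strand) and ADM at chr11:10304823-10305072 (plus strand).
ALDOC: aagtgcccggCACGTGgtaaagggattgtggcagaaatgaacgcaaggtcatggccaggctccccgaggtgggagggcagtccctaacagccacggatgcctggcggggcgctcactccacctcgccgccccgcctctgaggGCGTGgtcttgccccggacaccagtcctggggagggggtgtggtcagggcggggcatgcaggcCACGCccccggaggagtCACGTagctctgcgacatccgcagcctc
P4HA2: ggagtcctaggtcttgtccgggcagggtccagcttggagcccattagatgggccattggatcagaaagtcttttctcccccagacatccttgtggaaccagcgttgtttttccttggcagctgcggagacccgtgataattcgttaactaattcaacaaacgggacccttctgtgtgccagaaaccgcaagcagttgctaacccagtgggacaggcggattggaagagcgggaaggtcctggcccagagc
DDIT4: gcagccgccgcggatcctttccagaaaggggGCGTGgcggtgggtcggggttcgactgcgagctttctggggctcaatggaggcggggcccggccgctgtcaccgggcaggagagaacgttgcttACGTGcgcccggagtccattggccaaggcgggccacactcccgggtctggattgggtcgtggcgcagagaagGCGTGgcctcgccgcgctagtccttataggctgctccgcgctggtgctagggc
ADM: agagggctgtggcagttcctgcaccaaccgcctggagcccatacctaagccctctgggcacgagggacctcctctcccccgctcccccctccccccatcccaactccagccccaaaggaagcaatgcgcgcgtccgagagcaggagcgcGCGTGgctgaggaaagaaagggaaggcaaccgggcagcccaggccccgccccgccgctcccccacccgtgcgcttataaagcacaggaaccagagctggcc
The ALDOC window held 3 matches to ACGTG and 2 to GCGTG. The DDIT4 window held 1 and 2, the ADM window 0 and 1, and the P4HA2 window neither. Windows were at hand for 35 of the 42 genes, some with more than 1 start. Of their 66 windows, 37.9% held ACGTG and 34.8% GCGTG, against 18.5% and 32.2% of 35116 windows of the same length over all genes. The 38 windows of 22 genes that were higher with BRG1 held ACGTG in 39.5% and GCGTG in 42.1%. The 21 windows of 10 other genes tested held them in 38.1% and 23.8%. Several windows of 1 gene were each counted, so these shares do not compare genes. Of the 21, 7 were of PFKM, 0 of them with GCGTG, and of the 38, 7 were of HK1, 1 of them with GCGTG. A match is a description of the letters and not a measured binding site.

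Other hypoxia targets followed with smaller differences. NDRG1, a stress-responsive gene of the hypoxia programme, was dim in Ad-GFP cells at 5.53, 5.41 and 5.41 and read 6.48, 6.33 and 6.14 in Ad-BRG1 cells, a difference of 0.87 (SE 0.089, adjusted p = 4.3e-06). ANKRD37, an ankyrin repeat protein and HIF target, read 6.88, 7.02 and 6.85 in Ad-GFP and 7.85, 7.85 and 7.57 in Ad-BRG1 cells, a difference of 0.84 (SE 0.095, adjusted p = 9.89e-06). Neither gene had overlapping groups. Over all alternative runs the smallest differences were 0.34 for NDRG1 and 0.49 for ANKRD37. AK4, an adenylate kinase of the mitochondrial matrix, was 1.58-fold higher (adjusted p = 8.76e-07). The mitophagy receptors BNIP3 and BNIP3L had small called differences of 0.23 and 0.21 (adjusted p = 0.0234 and 0.0412). The BNIP3 call was lost without Ad-GFP replicate 1 or Ad-BRG1 replicate 2 or 3 (0.19 to 0.23, adjusted p = 0.0512 to 0.0882). That of BNIP3L was lost without Ad-GFP replicate 1 or 2, Ad-BRG1 replicate 1 or 3, Ad-GFP + IFNγ replicate 1 or Ad-BRG1 + IFNγ replicate 2 (0.17 to 0.21, adjusted p = 0.0501 to 0.135).

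VEGFA, the growth factor of new blood vessels, was the 1 hypoxia target on the other side. It read 6.99, 6.82 and 7.45 in Ad-GFP and 6.31, 6.65 and 6.93 in Ad-BRG1 cells, and the groups overlapped. The difference of -0.46 (SE 0.18, adjusted p = 0.0428) was called, but not without any 1 of 8 arrays: Ad-GFP replicate 1 or 3, Ad-BRG1 replicate 1 or 2, Ad-GFP + IFNγ replicate 1, 2 or 3, or Ad-BRG1 + IFNγ replicate 2 (-0.28 to -0.51, adjusted p = 0.0501 to 0.194). Its other probe above background gave -0.073 (adjusted p = 0.57 over all kept probes).

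**Figure D2:**
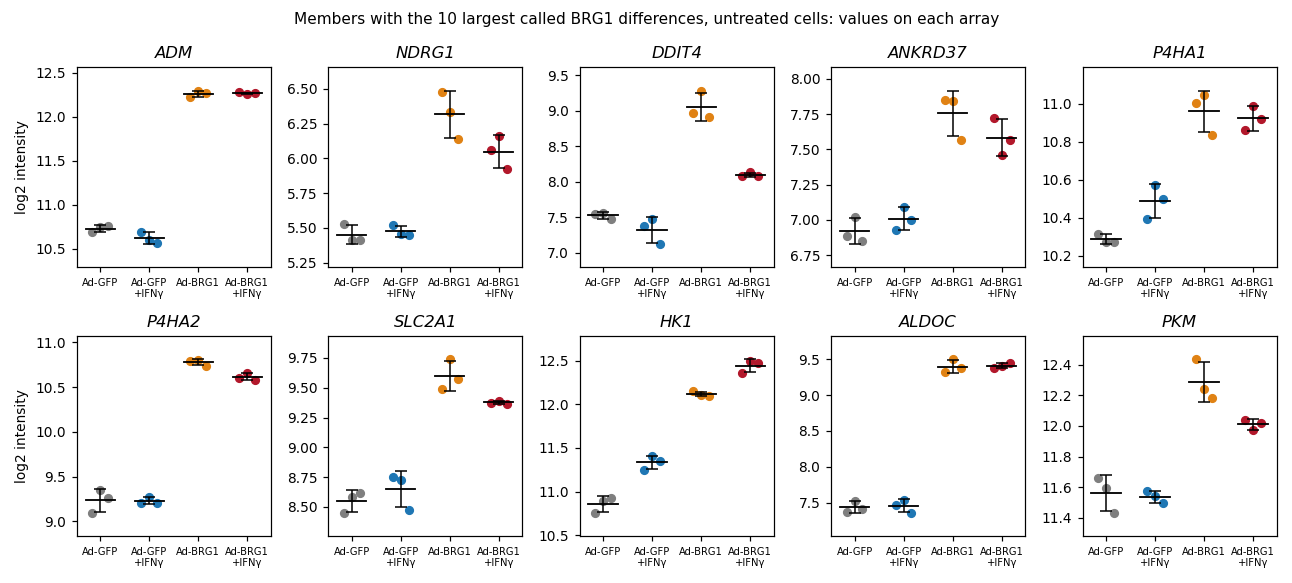
Normalized log2 intensity on each array (vertical axis, scale set for each gene and not starting at 0) of the 10 genes with the largest called BRG1 differences in untreated cells. Points are single arrays, bars the mean and SD of 3 arrays, and the untreated Ad-BRG1 points lie above the untreated Ad-GFP points for all 10.

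The mRNAs of glucose transporters and hexokinases were higher with BRG1. SLC2A1 (GLUT1), the broadly used glucose transporter, read 8.45, 8.58 and 8.61 in Ad-GFP and 9.49, 9.74 and 9.57 in Ad-BRG1 cells. That was 2.07-fold (log2 1.05, SE 0.088, adjusted p = 7.06e-07), with no overlap. SLC2A3 (GLUT3), a high-affinity glucose transporter, moved from 12.53, 12.52 and 12.54 to 13.05, 13.07 and 13.13, a difference of 0.56 (SE 0.059, adjusted p = 5.77e-06). SLC2A3 has a close copy, SLC2A14, and whether its probe also reads that copy was not tested. HK1, the hexokinase of most cells, read 10.75, 10.89 and 10.92 in Ad-GFP and 12.15, 12.11 and 12.10 in Ad-BRG1 cells, 2.40-fold apart (log2 1.26, SE 0.069, adjusted p = 1.5e-08). HK2, the inducible hexokinase, was dim and more scattered, at 5.39, 5.76 and 6.02 in Ad-GFP and 6.43, 6.58 and 6.15 in Ad-BRG1 cells. Its difference of 0.66 was called (SE 0.17, adjusted p = 0.00513), while its other probe gave 0.14 (adjusted p = 0.333 over all kept probes).

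The remaining enzymes of upper glycolysis differed less. GPI, which turns glucose phosphate into fructose phosphate, was higher by 0.35, and the phosphofructokinases PFKP and PFKL by 0.43 and 0.28 (adjusted p = 0.00197, 0.000199 and 0.00604). The muscle isoform PFKM (0.082, adjusted p = 0.348) and the triose isomerase TPI1 (0.13, adjusted p = 0.196) were not called. ALDOA, the common aldolase, had a difference of 0.17 (adjusted p = 0.0333), far below that of ALDOC, and the call was lost without Ad-GFP replicate 1, 2 or 3 or Ad-BRG1 replicate 1 or 2 (0.14 to 0.18, adjusted p = 0.0601 to 0.123). The second ALDOA probe above background gave 0.017.

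The PFKFB enzymes make and break the sugar bisphosphate that switches phosphofructokinase on. PFKFB2 was lower with BRG1, at 6.10, 6.26 and 5.92 against 6.71, 6.64 and 6.89 in Ad-GFP cells (-0.65, SE 0.13, adjusted p = 0.00118), and its second probe gave -0.08 (adjusted p = 0.541 over all kept probes). PFKFB3 was lower by 0.22 (SE 0.054, adjusted p = 0.00351), and both of its probes were called. PFKFB4 had a difference of 0.00069 (adjusted p = 0.995).

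In lower glycolysis PKM, the pyruvate kinase of most tissues outside liver and red cells, stood apart from the rest. It read 11.66, 11.60 and 11.43 in Ad-GFP and 12.43, 12.24 and 12.18 in Ad-BRG1 cells, 1.65-fold apart (log2 0.72, SE 0.079, adjusted p = 7.33e-06), and its 2 other probes gave 0.85 and 0.93. Enolase ENO1 and phosphoglycerate mutase PGAM1 were higher by 0.25 and 0.22 (adjusted p = 0.00219 and 0.00762). The second PGAM1 probe gave 0.045 (adjusted p = 0.643 over all kept probes). PGK1, the first kinase of this stretch to yield ATP, had overlapping groups, and its difference of 0.31 (adjusted p = 0.0429) was not called without Ad-GFP replicate 1 or 3, Ad-BRG1 replicate 1 or 3, or Ad-GFP + IFNγ replicate 1, 2 or 3 (0.20 to 0.33, adjusted p = 0.0526 to 0.183). The second PGK1 probe was called, at 0.21 (adjusted p = 0.0196 over all kept probes). GAPDH, PGAM1 and PGK1 have near-identical copies in the genome, and whether their probes read these was not tested. GAPDH was not called (0.093, adjusted p = 0.209), although 1 of its 3 probes was (0.27, adjusted p = 0.00573 over all kept probes).

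None of the genes that decide the fate of pyruvate was called. The lactate dehydrogenase subunit LDHA read 14.33, 14.32 and 14.21 in Ad-GFP and 14.81, 14.45 and 14.46 in Ad-BRG1 cells. These did not overlap, yet the difference of 0.29 missed the threshold (95% interval 0.03 to 0.54, adjusted p = 0.0543). LDHB, the other subunit, had a difference of -0.042 (95% interval -0.20 to 0.11). For the pyruvate dehydrogenase kinases PDK1 and PDK3, which hold pyruvate out of the mitochondrial cycle, the differences were -0.048 and -0.067 (95% intervals -0.30 to 0.20 and -0.24 to 0.11). A second PDK3 probe was higher by 0.36 (adjusted p = 0.000766 over all kept probes).

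The HIF machinery itself moved in part. HIF1A read 7.25, 6.85 and 6.93 in Ad-GFP and 7.45, 7.15 and 7.64 in Ad-BRG1 cells, with overlap between Ad-GFP replicate 1 and the lowest Ad-BRG1 array. Its difference was 0.40 (SE 0.13, adjusted p = 0.0184), and the call was lost without Ad-GFP replicate 2 or 3 or Ad-BRG1 replicate 1 or 3 (0.29 to 0.39, adjusted p = 0.0519 to 0.0813). The other HIF1A probes gave 0.40 and 0.27 (adjusted p = 0.00528 and 0.107 over all kept probes). EPAS1 was not above background on any Ad-GFP array (5.13, 5.11 and 5.17) and above it on all Ad-BRG1 arrays (5.81, 5.84 and 5.42). Against the lowest level read above background on each array, this was at least 1.24-fold higher. The adjusted p of 0.00129 in the limma fit is that of the readings as they stand, not of this bound. EPAS1 was kept for testing only because it was above background in the groups with BRG1, so the filter favoured a rise.

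Of the genes that degrade HIF, EGLN1, the main oxygen sensor, was higher with BRG1, at 8.02, 7.91 and 7.96 against 7.35, 7.34 and 7.33 (0.63, SE 0.082, adjusted p = 3.32e-05). EGLN1 is itself a HIF target in many cells. EGLN2 read 11.11, 11.32 and 11.29 in Ad-GFP and 11.30, 11.49 and 11.51 in Ad-BRG1 cells and was not called (0.19, adjusted p = 0.0606), while its other probe was (0.32, adjusted p = 0.00744 over all kept probes). VHL was lower, at 10.76, 10.70 and 10.72 against 11.07, 10.94 and 11.01 with no overlap (-0.28, SE 0.071, adjusted p = 0.00481). Its other 2 probes gave -0.22 and -0.054 and were not called.

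**Figure D3:**
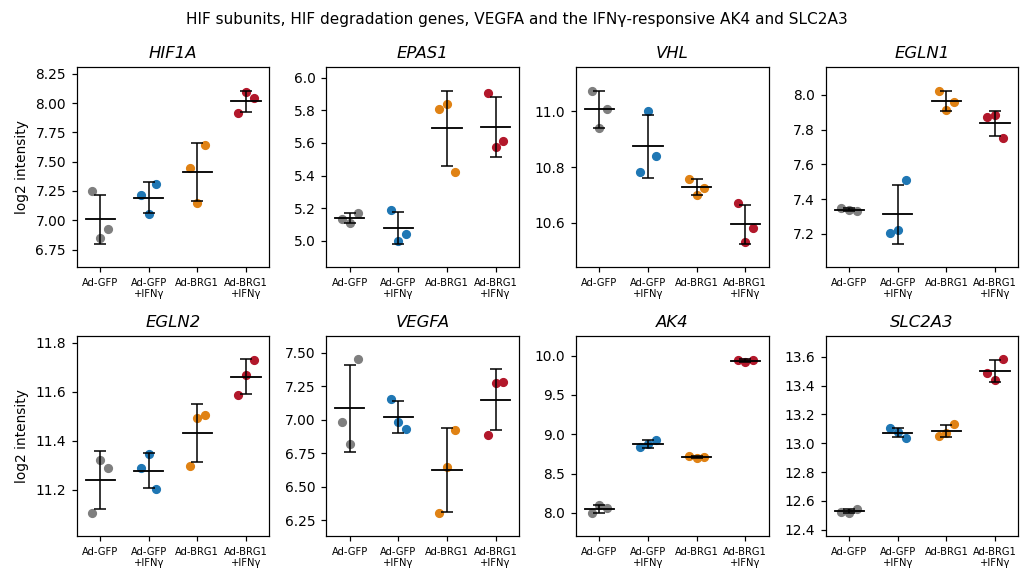
Normalized log2 intensity on each array (vertical axis, scale set for each gene and not starting at 0) of the HIF subunits, 3 genes of HIF degradation, VEGFA, AK4 and SLC2A3 in the 4 groups. Points are single arrays and bars the mean and SD of 3 arrays. AK4 lies lowest in untreated Ad-GFP cells and highest in Ad-BRG1 cells with IFNγ, where its 3 arrays read 9.94, 9.92 and 9.95.

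In IFNγ-treated cells 24 of the 38 genes were higher with BRG1, 4 were lower and 10 were not called, against 28.3% higher and 32.8% lower over all genes tested, 61.1% in all (34.2% and 28.1% after average normalization, with 25 and 4 of the 38). The median was 0.23 and that of all genes -0.029, and 5 genes were at least 2-fold higher, against 5.56% of all genes. The groups did not overlap for 28 of the 38, against 65.3% of all genes. By role the higher genes included 8 of 10 hypoxia targets, 5 of 9 enzymes of upper and 3 of 5 of lower glycolysis, both transporters and both HIF subunits. On the probes used, none was lower in any of these roles. This comparison uses other arrays than that of untreated cells. Called higher in both were 19 genes: HIF1A, EPAS1, EGLN1, ADM, BNIP3, NDRG1, DDIT4, ANKRD37, P4HA1, P4HA2, AK4, SLC2A1, SLC2A3, HK1, GPI, PFKP, ALDOC, ENO1 and PKM. Called lower in both were VHL, PFKFB2 and PFKFB3, and no gene was called in opposite directions. With IFNγ the other kept probes of PFKFB2 and PFKFB3 gave 0.011 and 0.038 (adjusted p = 0.933 and 0.759 over all kept probes). The PFKFB2 call with IFNγ was also lost after average normalization. TPI1, LDHA and PDK1 were called in neither.

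The largest differences with IFNγ were again in ALDOC, at 7.47, 7.54 and 7.36 in Ad-GFP + IFNγ and 9.38, 9.41 and 9.45 in Ad-BRG1 + IFNγ cells (3.87-fold, SE of the log2 difference 0.072, adjusted p = 2.88e-10). ADM followed at 10.69, 10.60 and 10.56 in Ad-GFP + IFNγ and 12.27, 12.26 and 12.26 in Ad-BRG1 + IFNγ cells (3.13-fold, adjusted p = 1.81e-10). P4HA2 read 9.21, 9.28 and 9.21 in Ad-GFP + IFNγ and 10.60, 10.66 and 10.58 in Ad-BRG1 + IFNγ cells (2.61-fold, log2 1.39, adjusted p = 5.53e-09), and its 2 other probes gave 1.43 and 0.38. None of these groups overlapped on the probes used, and the same held for HK1 and AK4. HK1 read 11.25, 11.40 and 11.35 in Ad-GFP + IFNγ and 12.36, 12.49 and 12.48 in Ad-BRG1 + IFNγ cells (2.16-fold, adjusted p = 3.97e-08). AK4 read 8.83, 8.87 and 8.93 in Ad-GFP + IFNγ and 9.94, 9.92 and 9.95 in Ad-BRG1 + IFNγ cells (2.08-fold, log2 1.06, adjusted p = 8.82e-09). Its 3 other probes above background gave 1.65, 0.74 and 0.13, the last not called (adjusted p = 0.345 over all kept probes).

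HIF1A, whose groups overlapped in untreated cells, read 7.22, 7.05 and 7.31 in Ad-GFP + IFNγ and 7.91, 8.09 and 8.04 in Ad-BRG1 + IFNγ cells and was 1.77-fold higher with BRG1 (log2 0.82, SE 0.13, adjusted p = 0.000147). Its 2 other probes gave 0.73 and 0.052 (adjusted p = 0.000421 and 0.686 over all kept probes). EPAS1 read 5.19, 5.0 and 5.04 in Ad-GFP + IFNγ and 5.91, 5.58 and 5.61 in Ad-BRG1 + IFNγ cells, not above background on the former. It was at least 1.22-fold higher, and the adjusted p of 0.000489 is that of the readings as they stand. EGLN1 read 7.20, 7.22 and 7.51 in Ad-GFP + IFNγ and 7.87, 7.88 and 7.75 in Ad-BRG1 + IFNγ cells (0.52, adjusted p = 0.000125). EGLN2 was called in this setting, at 11.29, 11.35 and 11.20 in Ad-GFP + IFNγ and 11.59, 11.67 and 11.73 in Ad-BRG1 + IFNγ cells (0.38, SE 0.082, adjusted p = 0.00137), and VHL was lower at 10.67, 10.53 and 10.58 against 10.78, 11.00 and 10.84 (-0.28, adjusted p = 0.00442). All 3 VHL probes were called lower with IFNγ present.

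Besides EGLN2, PFKM, PFKFB4, GAPDH and PDK3 were called higher and LDHB lower with IFNγ but not without it, by 0.19 to 0.26 in size. On the probes used, VEGFA, BNIP3L, HK2, PFKL, ALDOA, PGK1 and PGAM1 were called without IFNγ and not with it. The other kept VEGFA probe was called lower with BRG1 under IFNγ (-0.32, adjusted p = 0.0165 over all kept probes). The difference between the settings was not called for any of these genes (the smallest adjusted p of the interaction was 0.123, for PDK3). Several calls were lost without a single array. PFKM was not called without Ad-BRG1 + IFNγ replicate 2 (0.18, adjusted p = 0.0703), and PDK3 not without Ad-GFP + IFNγ replicate 1 or 2 or Ad-BRG1 + IFNγ replicate 2 or 3 (0.17 to 0.20, adjusted p = 0.0888 to 0.127). GPI (0.19) lost its call without any 1 of 9 arrays, all but Ad-GFP replicate 1 and Ad-BRG1 replicates 1 and 3 (0.15 to 0.22, adjusted p = 0.0523 to 0.156). PFKFB4 (0.19) lost it without Ad-GFP replicate 2, Ad-GFP + IFNγ replicate 2 or 3, or Ad-BRG1 + IFNγ replicate 1, 2 or 3 (0.16 to 0.20, adjusted p = 0.0504 to 0.126).

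IFNγ alone moved few of the genes in Ad-GFP cells. AK4, SLC2A3 and HK1 rose and PFKFB4 fell, so 3 of 38 were higher and 1 lower, where 3.1% of all genes tested were higher and 0.977% lower (4.07% in all). None of the 38 rose 2-fold, against 0.59% of all genes, and their median difference was -0.0022. The groups were apart on single arrays for 9 of the 38, against 28.1% of all genes.

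AK4 went from 8.0, 8.10 and 8.06 in untreated to 8.83, 8.87 and 8.93 in IFNγ-treated Ad-GFP cells, a 1.77-fold rise (log2 0.83, SE 0.056, adjusted p = 9.29e-07). SLC2A3 read 13.10, 13.08 and 13.04 after IFNγ against 12.53, 12.52 and 12.54 before (0.55, SE 0.059, adjusted p = 9.7e-05), and HK1 11.25, 11.40 and 11.35 against 10.75, 10.89 and 10.92 (0.48, SE 0.069, adjusted p = 0.00115). None of these groups overlapped. HK2 read 6.52, 6.37 and 6.26 after IFNγ against 5.39, 5.76 and 6.02, without overlap, and missed the threshold (0.66, 95% interval 0.29 to 1.03, adjusted p = 0.0517). PFKFB4 fell by 0.31, from 9.43, 9.52 and 9.70 to 9.33, 9.18 and 9.20 (adjusted p = 0.0355). That call was lost without Ad-GFP replicate 2 or 3, Ad-BRG1 replicate 2, Ad-GFP + IFNγ replicate 2 or 3, or Ad-BRG1 + IFNγ replicate 2 (-0.24 to -0.33, adjusted p = 0.0501 to 0.127). The HIF subunits and the HIF degradation genes did not pass the test, with differences from -0.13 (VHL) to 0.19 (HIF1A). Another VHL probe was called in the opposite direction (0.32, adjusted p = 0.0407 over all kept probes).

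With BRG1 present IFNγ raised 6 of the 38 genes and lowered 8, against 13.1% higher and 19.6% lower over all genes tested, 32.7% in all (16.6% and 14.6% after average normalization). AK4, HIF1A, VEGFA, SLC2A3, HK1 and EGLN2 rose, and DDIT4, LDHA, PKM, NDRG1, PFKL, BNIP3L, GPI and PFKFB3 fell. Their median difference was -0.074, against -0.035 over all genes. The groups did not overlap for 19 of the 38, against 42.9% of all genes. AK4 was the 1 gene of at least 2-fold, a size that 1.83% of all genes reached upward.

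AK4 read 8.73, 8.69 and 8.71 before and 9.94, 9.92 and 9.95 after IFNγ in Ad-BRG1 cells, a 2.34-fold rise (log2 1.23, SE 0.056, adjusted p = 6.18e-09). DDIT4 fell from 8.97, 9.28 and 8.92 to 8.08, 8.13 and 8.08, 1.95-fold lower (log2 -0.96, SE 0.10, adjusted p = 3.42e-05), with every treated array under every untreated one. HIF1A rose from 7.45, 7.15 and 7.64 to 7.91, 8.09 and 8.04 (1.52-fold, SE of the log2 difference 0.13, adjusted p = 0.00508). Its 2 other probes gave 0.16 and -0.13 and were not called (adjusted p = 0.394 and 0.35 over all kept probes), so the rise rests on 1 of 3 probes. VEGFA moved from 6.31, 6.65 and 6.93 to 6.89, 7.28 and 7.28, with overlap (0.52, SE 0.18, adjusted p = 0.0406), and its second probe gave 0.021. LDHA fell from 14.81, 14.45 and 14.46 to 14.31, 14.21 and 13.92 (-0.43, SE 0.12, adjusted p = 0.0164).

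SLC2A3 and HK1 rose in Ad-BRG1 cells too, to 13.49, 13.44 and 13.58 (0.42, adjusted p = 0.000338) and 12.36, 12.49 and 12.48 (0.32, adjusted p = 0.00484). EGLN2 rose by 0.23 (adjusted p = 0.0483). PKM, NDRG1, PFKL, BNIP3L, GPI and PFKFB3 fell by 0.16 to 0.28. All 3 PKM probes were called lower, whereas the second PFKFB3 probe was called higher (0.32, adjusted p = 0.0271 over all kept probes). Their difference from Ad-GFP cells before IFNγ and their fall with IFNγ are both measured from the same 3 untreated Ad-BRG1 arrays, so the comparisons are not independent.

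The small IFNγ differences in Ad-BRG1 cells depended on single arrays. Called in every run that left out 1 array were AK4, DDIT4, HIF1A, SLC2A3 and HK1, and the other 9 were lost in at least 1 run. Without Ad-BRG1 replicate 1 the count of 14 was 5, without Ad-BRG1 replicate 2 it was 8, without Ad-BRG1 + IFNγ replicate 2 it was 8, and without Ad-BRG1 + IFNγ replicate 3 it was 7. With only the 6 arrays compared in the fit it was 5. LDHA lost its call without Ad-BRG1 replicate 1 or Ad-BRG1 + IFNγ replicate 3 (-0.31 in each, adjusted p = 0.07 to 0.0725), and PKM without Ad-BRG1 replicate 1 or Ad-BRG1 + IFNγ replicate 2 (-0.20 to -0.26, adjusted p = 0.0647 to 0.0848). NDRG1 (-0.19 to -0.28) and PFKL (-0.23 to -0.25) were lost without Ad-BRG1 replicate 1 or 2 or Ad-BRG1 + IFNγ replicate 1 or 3, GPI (-0.18 to -0.27) without replicate 1 or 2 of the former or 2 or 3 of the latter, and BNIP3L (-0.21 to -0.24) without replicate 1 or 3 of the former or 1 or 2 of the latter. VEGFA (0.36 to 0.53) was lost without Ad-GFP replicate 1, Ad-BRG1 replicate 1 or 2, Ad-GFP + IFNγ replicate 2 or 3, or Ad-BRG1 + IFNγ replicate 2 or 3. PFKFB3 (-0.16 to -0.18) was lost without any 1 of 8 arrays, all but Ad-GFP replicates 1 and 3 and Ad-GFP + IFNγ replicates 2 and 3. EGLN2 (0.16 to 0.26) was lost without any 1 of 9, all but Ad-GFP replicate 1, Ad-BRG1 replicate 3 and Ad-BRG1 + IFNγ replicate 1. Processing mattered as well. NDRG1 and BNIP3L also lost their calls after average normalization and without background correction. Over all alternatives their falls shrank to as little as -0.046 and -0.076. Ad-BRG1 + IFNγ was also the group with the lowest raw mean intensity (539.9 to 571), and its part in these differences was not tested.

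**Figure D4:**
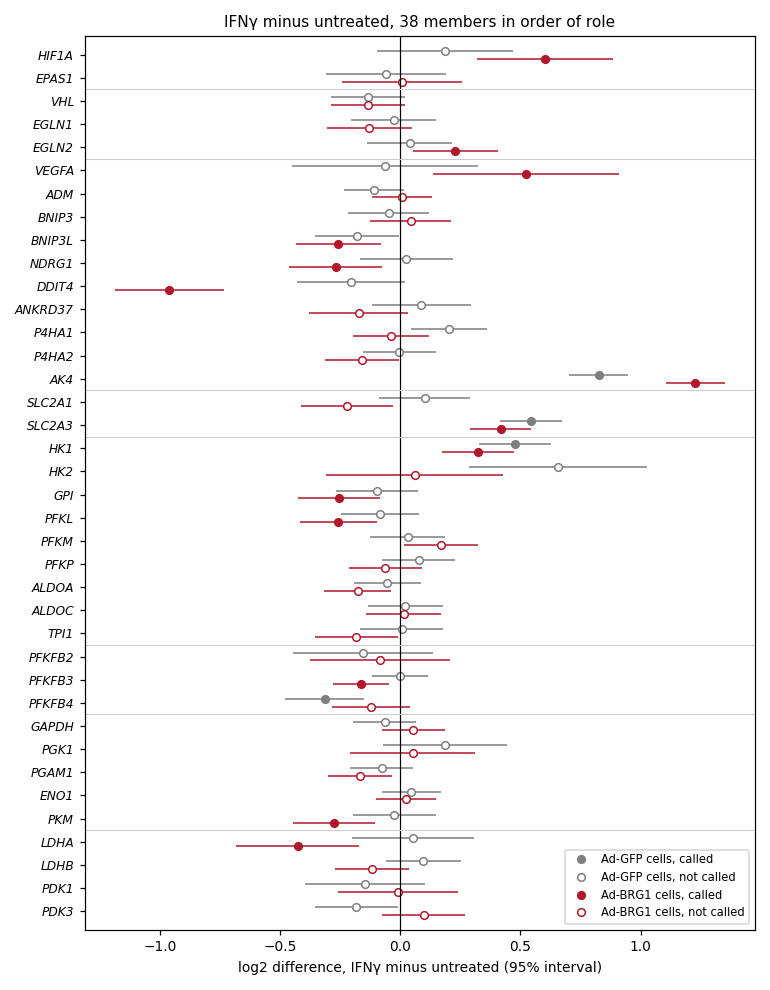
Log2 difference of IFNγ minus untreated (horizontal axis) for each of the 38 genes in order of role, with 95% intervals, in Ad-GFP cells (grey) and Ad-BRG1 cells (red). Filled points are called and open points are not. AK4 stands farthest to the right in both, at 0.83 and 1.23, and DDIT4 farthest to the left in Ad-BRG1 cells, at -0.96.

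The interaction, in which the IFNγ difference of Ad-GFP cells is taken from that of Ad-BRG1 cells, was called for 2 of the 38 genes, 1 in each direction, against 4.32% higher and 3.83% lower over all genes tested, 8.15% in all (7.85% and 4.44% after average normalization, with 1 and 2 of the 38). DDIT4 fell by 0.96 with IFNγ in Ad-BRG1 cells and had a difference of -0.21 in Ad-GFP cells, where it read 7.38, 7.47 and 7.12 against 7.55, 7.56 and 7.47 and was not called (adjusted p = 0.306). The interaction was -0.76 (SE 0.15, adjusted p = 0.0102). DDIT4 with IFNγ was still 1.71-fold higher in Ad-BRG1 than in Ad-GFP cells (adjusted p = 3.67e-05).

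AK4 rose further with IFNγ in Ad-BRG1 cells than in Ad-GFP cells, with an interaction of 0.40 (SE 0.08, adjusted p = 0.011). Its 3 other probes above background gave 0.64, 0.22 and 0.066 (adjusted p = 0.0496, 0.392 and 0.796 over all kept probes). All 4 probes rose with IFNγ in Ad-BRG1 cells, by 0.48 to 1.33, and 3 of 4 in Ad-GFP cells. For the BRG1 effect in untreated cells 3 probes gave 0.66 to 1.01 and the fourth -0.087 (adjusted p = 0.533). AK4 has processed copies elsewhere in the genome, and which probes read them was not tested. LDHA, with an interaction of -0.48, did not pass the test (SE 0.17, adjusted p = 0.0851).

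Genes outside the 42 were counted for context in 6 further lists of glucose metabolism and the HIF pathway, with 102 genes, 95 of them with a probe and 67 tested. In untreated cells 34 of the 67 were higher with BRG1 and 9 lower, with a median of 0.24. The 67 include VLDLR, PLOD2, HKDC1, PDP1, EDN1 and STC2, which were kept only through groups with BRG1. For these the filter favoured a rise, and the counts were not repeated without them. Over all genes tested 26.7% were higher and 30.3% lower, with a median of -0.031, and these shares also apply to the counts of the single lists. Among other HIF targets 16 of 30 were higher and 4 lower. The lipoprotein receptor VLDLR, not above background without BRG1 and kept only through the groups with it, was at least 9.77-fold higher. The feedback inhibitor of EGF receptor signalling ERRFI1 was 5.07-fold higher (adjusted p = 3.31e-10) and the carbonic anhydrase CA12 4.04-fold (adjusted p = 1.7e-10). Lower were MXI1, an antagonist of MYC, by 0.78, the endoplasmic reticulum oxidase ERO1A by 0.30 and FAM162A by 0.24 (adjusted p = 2.62e-05, 0.0111 and 0.0483).

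Other glycolysis genes had 5 of 8 higher and 2 lower. ENO2, the neuronal enolase, was 2.86-fold higher (adjusted p = 1.04e-08), and TIGAR, a sugar phosphatase, was higher by 0.41 (adjusted p = 0.000264). HKDC1, a hexokinase relative not above background without BRG1 and kept only through the groups with it, was at least 1.34-fold higher. BPGM and PGM2 were lower by 0.30 and 0.26 (adjusted p = 0.00828 and 0.0218). All 3 other transporters tested were higher: SLC2A6 by 0.78, the lactate transporter chaperone BSG by 0.25 and SLC2A8 by 0.23 (adjusted p = 6.32e-07, 0.0129 and 0.012). In the pentose phosphate pathway 2 of 6 were higher (TKT by 0.64 and PGD by 0.37) and 1 lower (RPIA by 0.71). Of the genes that feed pyruvate to mitochondria 6 of 9 were higher and 2 lower, with pyruvate carboxylase PC at 0.64 and the carrier subunit MPC1 at 0.48. The phosphatase PDP1 was not above background without BRG1 and was above it on 1 of 3 untreated Ad-BRG1 arrays. It was at least 1.03-fold higher. Below zero were PDHX at -0.28 and DLAT at -0.18. In the rest of the HIF pathway 2 of 11 were higher and none lower, namely the coactivator CREBBP (0.31) and the ligase subunit RBX1 (0.23).

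**Figure D5:**
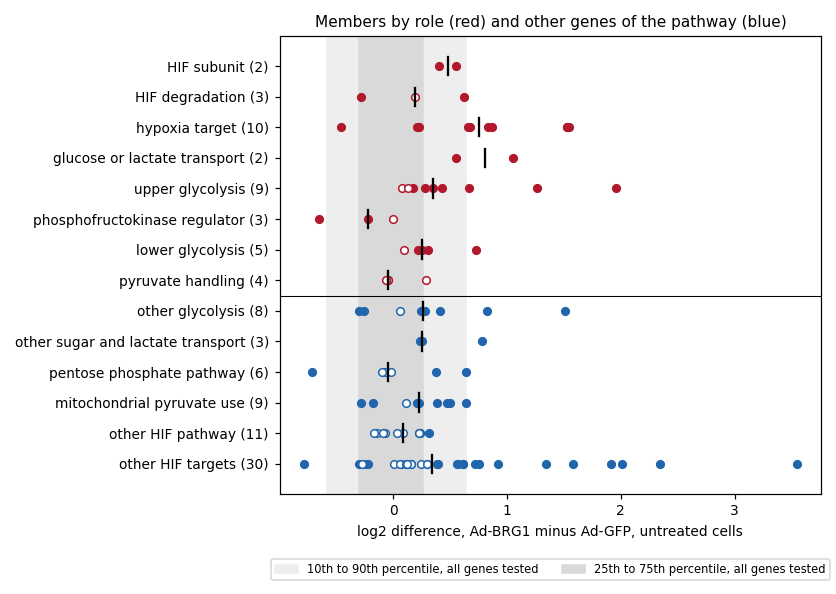
Log2 difference of Ad-BRG1 minus Ad-GFP in untreated cells (horizontal axis) for the 38 genes by role (red) and the 67 genes of the 6 further lists (blue), 1 point per gene, filled where called, with the number tested in brackets and the median as a black bar. Shaded bands hold the central parts of all 10333 genes: 25th to 75th percentile from -0.30 to 0.26 and 10th to 90th from -0.58 to 0.64. The glucose transporters and hypoxia targets have medians beyond the outer band.

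With IFNγ present 32 of these 67 genes were higher with BRG1 and 11 lower (median 0.19), against 28.3% and 32.8% of all genes tested (median -0.029). The largest in each list were VLDLR (at least 7.15-fold), ENO2 (2.48-fold), SLC2A6 (0.84), TKT (0.69), PDP1 (at least 1.69-fold) and CUL2 (0.59), and the lowest HILPDA (-0.94), RPIA (-0.72), DLAT (-0.20) and CITED2 (-0.63). IFNγ in Ad-GFP cells raised 1 of the 67, TMEM45A by 0.29 (adjusted p = 0.0398), and lowered 1, PC by 0.39 (adjusted p = 0.0463). Over all genes tested 3.1% rose and 0.977% fell there. In Ad-BRG1 cells IFNγ raised 4 and lowered 16, against 13.1% and 19.6% of all genes tested. Among the rises were CUL2, a scaffold of the VHL ubiquitin ligase (0.79), PDP1 (0.75) and BPGM (0.75), and the largest falls by list were ZNF395 (-0.51), ARNT2 (-0.41), PC (-0.31), BSG (-0.31) and PGLS (-0.24). The interaction was called for 6 of the 67, 2 upward and 4 downward, against 4.32% and 3.83% of all genes tested, 8.15% in all.

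Some markers of other cell types were higher with BRG1. Of 6 fibroblast markers 4 were tested and 3 were higher in untreated Ad-BRG1 cells, where 26.7% of all genes tested were higher. THY1 was 2.71-fold higher (adjusted p = 1.37e-07). COL1A1 (at least 8.96-fold) and PDGFRB (at least 2.46-fold) were not above background without BRG1 and were kept only through the groups with it. LUM was not called, and DCN was not tested. COL1A2 was above background on no array. The summed linear level of the 4 tested markers includes readings not above background. It was 429 to 462 on the Ad-GFP arrays, 1254 to 1575 on Ad-BRG1, 408 to 451 on Ad-GFP + IFNγ and 1046 to 1226 on Ad-BRG1 + IFNγ. Of 5 endothelial markers 2 were tested. TEK was higher with BRG1 (0.96, adjusted p = 1.59e-05) and PECAM1 was not called, their sum was 150.2 to 182 on the Ad-GFP, 248 to 285 on the Ad-BRG1, 155 to 180.4 on the Ad-GFP + IFNγ and 173 to 221 on the Ad-BRG1 + IFNγ arrays, and CDH5 and KDR were above background on no array. None of 5 leukocyte markers with a probe was tested. CD3E and ITGAM were above background on no array, and the other 3 on at least 1. The part of these markers in the results was not tested. Of 8 housekeeping genes 3 were higher and 2 lower with BRG1, with a median of -0.016, against 26.7% and 30.3% of all genes tested.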

How the data were processed

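RNA of 12 SW-13 samples was hybridised to Illumina Human-WG6 arrays, 1 colour and 1 array per sample. The deposited raw values are linear intensity per probe from BeadStudio (version not given in the sources used here), not background-subtracted or normalized, and beside each stands the authors' detection p-value for that probe and array. A second deposited table holds intensity after the authors' average normalization, which multiplies each array by 1 constant, and it served as an alternative.

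Raw intensities were background-corrected, quantile-normalized and put on the log2 scale with neqc (limma 3.58.1, R 4.3.3, offset 16, background level estimated from the detection p-values). Probes with a detection p under 0.05 on every array of 1 or more of the 4 groups were kept (16233 probes), and the brightest kept probe stood for its gene (10333 genes, 2482 of them with several). Probes were named by the array annotation: 27578 had 1 symbol, 13 several and 21212 none, 27541 were matched to a current gene table and 0 symbols changed. Groups and replicate numbers came from sample titles. A linear model with 1 mean per group on all 12 arrays (lmFit, eBayes, two-sided, 8 residual and 4.24 prior degrees of freedom) gave 5 contrasts, with Benjamini-Hochberg adjustment over the 10333 genes. The script was tested on simulated data. The study's methods name no test for these arrays. With 3 arrays per group, their number limits the precision.

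Where a gene was not above background on any array of a group, its value was raised on each array to the lowest level among detected probes, and the fold is written as at least. An adjusted p given for such a gene is that of the readings before this step. A gene not above background in either Ad-GFP group was kept only through the Ad-BRG1 groups, so the filter favoured a rise. Members and lists were chosen with earlier results of these data known. Named with values on every array are the HIF subunits and HIF degradation genes, the 10 largest called differences for BRG1 without IFNγ, the 5 largest of each other contrast and every called interaction. Of the further lists, up to 3 rises and 3 falls are named for BRG1 without IFNγ and the largest of each for the other contrasts, and some others that the text singles out were chosen after their values were seen. Marker sums add the linear normalized levels. Promoter sequences are from RefSeq (GRCh38.p14). Alternatives were average normalization, no background correction, an offset of 50, no or a stricter detection filter (0.01), the mean of all kept probes, only the groups compared, a replicate block, leaving out each array and, chosen after seeing the data, each other kept probe. Figures used Python 3.11.15 and matplotlib 3.10.9.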

Additional observations from a re-analysis of the deposited data

Results flagged for a closer look

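The response to IFNγ differed between Ad-BRG1 and Ad-GFP cells by the interaction term of the limma fit for 8 of the genes followed here, each given as the log2 response of Ad-BRG1 cells less the response of Ad-GFP cells. Of the 42 chosen genes these were DDIT4 at -0.76 (SE 0.15, adjusted p = 0.0102) and AK4 at 0.40 (SE 0.08, adjusted p = 0.011). Among the further lists BPGM, which makes bisphosphoglycerate, stood at 0.77 (adjusted p = 0.00204), with 7.67, 7.78 and 7.82 in Ad-GFP and 7.74, 7.80 and 7.68 in Ad-GFP + IFNγ cells and 7.32, 7.53 and 7.54 in Ad-BRG1 and 8.16, 8.35 and 8.13 in Ad-BRG1 + IFNγ cells. PDP1, the phosphatase that activates pyruvate dehydrogenase, stood at 0.63 (adjusted p = 0.038) and was not above background in either Ad-GFP group. CITED2, a competitor of HIF for its coactivators, stood at -0.48 and RBX1, a subunit of the VHL ligase, at -0.44 (adjusted p = 0.0294 and 0.0215). The HIF targets BHLHE40, a transcriptional repressor, and EDN1, a vasoconstrictor peptide, stood at -0.53 and -0.53 (adjusted p = 0.0189 and 0.0396). With each group that was not above background raised to the lowest detected level, the value was 0.72 for PDP1 and -0.16 for EDN1. Over all genes tested 8.15% had a called interaction.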

How the results depend on the processing

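Of 77 called differences of the chosen genes, 77 kept direction and call with an offset of 50, 74 without background correction, 70 after average normalization, 65 without a detection filter and, of those that could be tested, 71 of 71 with the stricter filter and 60 of 75 with only the groups compared. With the mean of all kept probes 71 kept both and 1 turned, PFKFB3 with IFNγ in Ad-BRG1 cells (0.080). On other probes, chosen after seeing the data, 29 of 51 kept both and 5 turned: HIF1A (-0.13) and PFKFB3 (0.32) with IFNγ in Ad-BRG1 cells, AK4 with BRG1 untreated (-0.087), and PFKFB2 (0.011) and PFKFB3 (0.038) with BRG1 under IFNγ. The cause was not tested. The count of called genes for IFNγ in Ad-BRG1 cells was 5 with only the groups compared, against 14 with all arrays, where the fit rests on fewer samples. Leaving out each array gave counts of 3 to 5 for IFNγ in Ad-GFP cells (4 with all), 5 to 15 in Ad-BRG1 cells, 24 to 30 for BRG1 untreated (29), 24 to 28 for BRG1 with IFNγ (28) and 2 to 3 for the interaction (2), and 103 of 924 calls were lost and 0 turned. Whether the replicate numbers pair the samples was not settled. Of 18 pairs with the same number 9 correlated over 0.1 (r -0.19 to 0.44, against -0.46 to 0.34 for other pairs). Of the 12 arrays 7 correlated best with an array of their own number. With a replicate block the counts were 3, 14, 30, 27 and 2, and 74 of 77 calls held. Those lost were PFKFB4 with IFNγ in Ad-GFP cells, PGK1 with BRG1 untreated and PFKFB4 with BRG1 under IFNγ. Over all genes tested the block gave a called interaction upward in 7.04% and downward in 5.91%, against 4.32% and 3.83% without it. No chip number was at hand, so a chip block was not run, and the interaction was not run with only the groups compared.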
